A study of Homo sapiens with 6 samples.

Results

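The genes described here are 31 genes of the p53 network: the p53 relatives TP63 and TP73, negative regulators of p53, and genes known as transcriptional targets of p53. They are all 31 rows, of 20289 in the deposited count table, that carry these symbols. Poly(A) RNA was sequenced from Huh7, a human hepatocellular carcinoma line, in 3 wild-type libraries and 3 libraries of cells with UBE2S knocked out, to find factors that UBE2S controls. The UBE2S protein, a ubiquitin-conjugating enzyme, extends ubiquitin chains for the anaphase-promoting complex. The labels give no agent, time point or clone number. Whether replicates came from separate cultures is not stated, so the p-values reflect only library-to-library spread, which may be technical.

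The p53 protein is a transcription factor that is held low by the ubiquitin ligase MDM2 and its partner MDM4, and that is stabilised after DNA damage and other stresses. Active p53 then raises genes for growth arrest, DNA repair, apoptosis and metabolic adjustment, and it raises MDM2 itself, which closes a feedback loop. In liver cells this network is known for restraining growth after genotoxic injury. Huh7 cells are known to carry a mutated p53 gene, and many of the targets also respond to other transcription factors, so a target's mRNA level does not by itself measure p53 activity.

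The libraries held 21840483 to 27910397 counts after rounding. Levels are given as CPM, counts scaled for library depth with the trimmed-mean method (TMM), and log2 fold changes compare knockout with wild type. A gene is called where the edgeR quasi-likelihood test, adjusted by Benjamini-Hochberg over all 13265 tested genes, gave p below 0.05. UBE2S itself fell from 224 ± 9.37 to 45.7 ± 1.7 CPM (mean ± SD, n = 3 each), with a log2 fold change of -2.29. The 10 hepatocyte markers were all detected, and their summed level was 31500 to 32200 CPM in wild-type cells and 28700 to 29300 CPM in knockout cells, with 3 called higher and 7 lower. Of the other marker lists, 8 stromal markers summed to 141 to 158 against 20.9 to 22.2 CPM, most of the wild-type level being COL1A2, although 3 of the 5 tested were called higher and 2 lower, and 6 immune markers to 290 to 313 against 179 to 182 CPM, led by LYZ and with CD3E and MS4A1 at 0. The 4 endothelial markers summed to 5.51 to 6.82 against 2.23 to 2.52 CPM with KDR at 0, and the 6 cholangiocyte markers to 330 to 358 against 296 to 301 CPM, with 1 called higher and 2 lower. The part of these shifts in the results was not tested. Huh7 is a cell line, so these sums are levels of marker genes and not numbers of cells of each type. In bulk RNA, fewer expressing cells and less RNA per cell cannot be told apart.

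The p53 network did not move in 1 direction in the knockout. Of the 31 genes, 28 had enough counts to be tested; 7 were called higher and 9 lower, and 12 were not called. Over all tested genes 29.4% were called higher and 30.7% lower, 60.1% in all, so the 16 called members were a share near that background. With upper-quartile scaling the split was 11 higher and 9 lower (55% of calls higher, against 43.8%), and with DESeq2 it was 5 higher and 9 lower (35.7%). The largest changes were falls of TP63, TNFRSF10A and PLK3, which are 3 members beyond an absolute log2 fold change of 1, a size reached by 6.14% of tested genes. At 0.5 or more there were 8, with TIGAR lower and GADD45A, PLK2, GDF15 and TP73 higher, against 18.9% of tested genes. The median log2 fold change of the tested members was 0.108, against -0.001 for all tested genes. The ranges of the groups were separate at 21 of the 28, and at 65.8% of all tested genes.

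**Figure D1:**
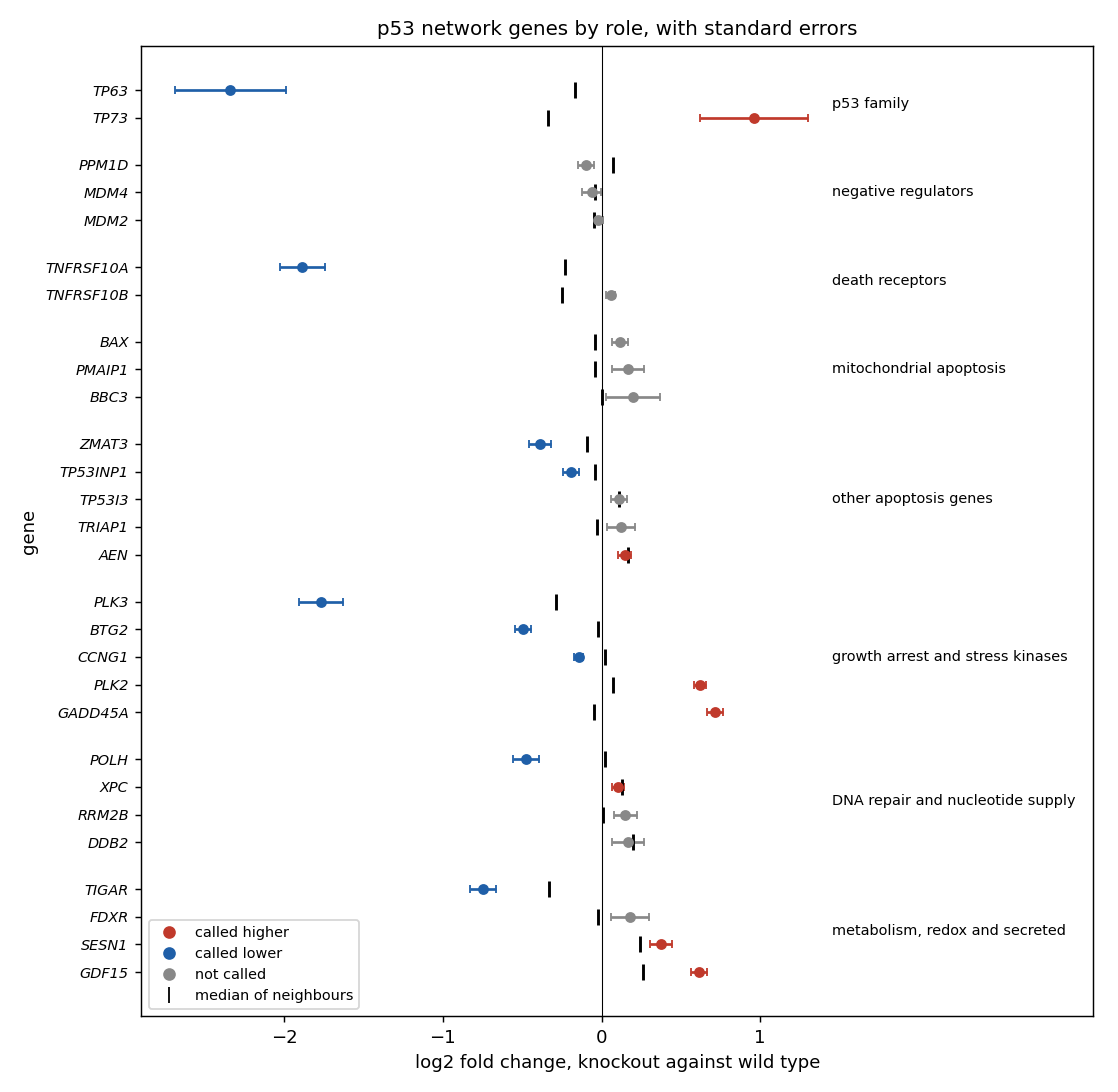
Log2 fold change (x axis, knockout against wild type) of the 28 tested p53 network genes, grouped by role. Points are edgeR estimates with their standard errors, colours give the call, and black ticks give the median change of the nearest tested genes on the chromosome; TP63, TNFRSF10A and PLK3 stand furthest to the left, and the negative regulators lie near 0.

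The relatives of p53 were both scarce and went opposite ways. TP63, whose protein binds the same DNA elements as p53 and specifies squamous epithelium, lies on chromosome 3 from 189631416 to 189897279 (GRCh38, plus strand). It had 28, 25 and 32 counts in the wild-type libraries and 6, 2 and 7 in those of the knockout. The knockout libraries were all lower, and TP63 fell by 2.34 log2 units (SE 0.35, edgeR adjusted p = 8.4e-05). As a ratio of summed counts, wild type exceeded knockout 5.16-fold (95% exact binomial interval 2.96 to 9.61, which covers counting error alone).

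TP73, the other relative, on chromosome 1 from 3652520 to 3736201, had 10, 6 and 7 counts in wild-type cells and 14, 14 and 13 in knockout cells. Its groups did not overlap, and the log2 fold change was 0.96 (SE 0.34, edgeR adjusted p = 0.026). This call was lost with DESeq2 (adjusted p = 0.18), with no filter on low counts (edgeR adjusted p = 0.064) and when wild-type replicate 2 (0.076), wild-type replicate 3 (0.091), knockout replicate 1 (0.080) or knockout replicate 2 (0.067) was left out. The ratio of summed counts was 1.96 (95% exact binomial interval 1.15 to 3.42, again counting error alone). TP73 shares 633 exonic bases with TP73-AS1 on the opposite strand, a gene not analysed here. TP73 passed the filter on low counts through its knockout libraries, and TP63 through its wild-type libraries.

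None of the 3 negative regulators was called. MDM2, the ubiquitin ligase for p53 and itself a classical p53 target, was at 86.4, 84.8 and 85.8 CPM in wild-type cells and 82.6, 86.7 and 84.1 CPM in the knockout. The ranges overlapped, and the log2 fold change was -0.02, with a 95% interval of -0.09 to 0.05. MDM4, which binds and silences p53 without strong ligase activity of its own, was at 26.2 ± 0.629 and 25.1 ± 2.17 CPM (interval of the log2 change -0.20 to 0.07). PPM1D, the phosphatase that switches off p53 and its upstream kinases, was at 27.1 ± 0.952 and 25.3 ± 0.657 CPM (interval -0.21 to 0.01). The exons of MDM2 overlap those of CPM, the carboxypeptidase M gene on the opposite strand, by 133 bases, and CPM fell by 0.22 log2 units. MDM2 also shares 785 exonic bases with AC025423.4 on the opposite strand and 439 with AC025423.2 on the same strand, genes not analysed here. Not all overlaps of the members are listed in this text. Reads of overlapping genes on opposite strands cannot be told apart where counting ignored strand, and no source used here gives the strand setting.

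Among death receptor genes the paired TRAIL receptors differed. TNFRSF10A encodes TRAIL receptor 1 (DR4), which signals to caspase-8. It was at 7.25, 6.09 and 7.17 CPM in wild-type cells and at 2.14, 1.71 and 1.73 CPM in the knockout. The groups were far apart, and TNFRSF10A fell by 1.89 log2 units (SE 0.14, edgeR adjusted p = 1.4e-07), from 539 summed counts to 132. On the opposite strand TNFRSF10A shares 266 exonic bases with AC100861.1 and 224 with TNFRSF10A-AS1, genes not analysed here. TNFRSF10B, a related gene also on chromosome 8, encodes TRAIL receptor 2 (DR5). It was at 166, 169 and 170 CPM in wild-type cells and 175, 174 and 177 CPM in knockout cells. Its groups did not overlap either, but the log2 fold change of 0.06 (95% interval 0.00 to 0.12) was not called (edgeR adjusted p = 0.10). With upper-quartile scaling TNFRSF10B passed the threshold (edgeR adjusted p = 0.049). The difference between these receptors was not tested. Their chromosomal neighbours, taken as the median of the nearest 25 tested genes on each side, stood at -0.23 around TNFRSF10A and -0.25 around TNFRSF10B. TNFRSF10C and TNFRSF10D, which are not members, lie between TNFRSF10B and TNFRSF10A. TNFRSF10D fell by 0.39 log2 units (SE 0.05, edgeR adjusted p = 1.3e-05), and TNFRSF10C had too few counts to be tested. FAS, the receptor for the death ligand FASLG, was hardly expressed, with 5, 2 and 5 counts in wild-type cells and 5, 6 and 4 in knockout cells, and was not tested.

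The mitochondrial apoptosis genes were not called. BBC3 (PUMA) and PMAIP1 (NOXA) encode proteins that bind and neutralise survival members of the BCL2 family, and BAX encodes a pore-forming member. BBC3 was at 2.61 ± 0.471 CPM in wild-type cells and 3.0 ± 0.402 CPM in the knockout, with a 95% interval of the log2 change from -0.17 to 0.57. PMAIP1 was at 7.33 ± 0.943 and 8.28 ± 0.363 CPM (interval -0.05 to 0.39). BAX was at 36.7 ± 1.34 and 39.9 ± 1.96 CPM, and its edgeR adjusted p of 0.059 lay close to the threshold. BAX passed it with upper-quartile scaling (0.039) and without knockout replicate 3 (0.027), and PMAIP1 passed without wild-type replicate 3 (0.026). All 3 genes had overlapping groups.

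Of 7 other genes tied to cell death or survival, 5 were tested. ZMAT3, an RNA-binding protein gene on chromosome 3, was at 25.1, 29.3 and 28.0 CPM in wild-type cells and 21.8, 21.5 and 19.6 CPM in the knockout. It fell by 0.39 log2 units (SE 0.07, edgeR adjusted p = 0.00029), with no overlap between groups. TP53INP1, which encodes a stress-induced protein linked to autophagy and p53 phosphorylation, fell by 0.19 log2 units (SE 0.05), with levels of 35.9 ± 1.91 and 31.3 ± 0.878 CPM. AEN, a nuclease gene for apoptotic DNA breakdown, rose from 51.8 ± 1.33 to 57.3 ± 1.46 CPM (0.15, SE 0.04), beside neighbours at 0.17; with the neighbours' median subtracted its value was -0.02.

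TP53I3 (PIG3), a quinone oxidoreductase gene, was at 30.7 ± 1.01 and 33.2 ± 0.629 CPM without overlap between groups, and its log2 fold change of 0.11 equalled that of its neighbours. It was not called (edgeR adjusted p = 0.059), though it passed with upper-quartile scaling (0.037), with library totals alone (0.045) and without wild-type replicate 3 (0.039). TRIAP1, a small survival protein gene, was at 12.9 ± 1.91 and 14 ± 0.343 CPM and was not called, but passed without wild-type replicate 2 (adjusted p = 0.046). SPATA18, which encodes a protein of mitochondrial quality control, had 6 summed counts in wild-type cells and 3 in knockout cells. PHLDA3, an inhibitor of AKT signalling, had 0 counts in all wild-type libraries and 2, 3 and 1 in knockout libraries. The 95% exact binomial interval of the knockout to wild-type ratio of PHLDA3 began at 1.29. This interval rests on 6 counts, covers counting error alone and is no test between the groups. PHLDA3 shares 598 exonic bases with AC096677.2 on the same strand, a gene not analysed here. Neither SPATA18 nor PHLDA3 was tested.

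Each of the 5 growth-arrest genes and stress kinases was called, 2 higher and 3 lower. Of all tested genes 60.1% were called, and role groups this small were not compared with that share. GADD45A encodes a stress sensor that binds proliferating cell nuclear antigen and kinases, and lies on chromosome 1 from 67685061 to 67688338. It was at 25.1, 25 and 25 CPM in wild-type cells and at 42.4, 42.0 and 39.4 CPM in the knockout. All knockout libraries lay above all wild-type libraries, and GADD45A rose by 0.72 (SE 0.05, edgeR adjusted p = 7.1e-08), which is 1.64-fold. Its neighbours stood at -0.05.

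The polo-like kinases PLK2 and PLK3, related genes that both respond to stress, went opposite ways. PLK2, which acts in centriole duplication, was at 50.4, 51.8 and 52.1 CPM in wild-type cells and 80.5, 76.2 and 80.5 CPM in the knockout. The knockout libraries were all higher, and PLK2 rose by 0.62 log2 units (SE 0.04, edgeR adjusted p = 3.6e-08). PLK3, a kinase that phosphorylates p53 after DNA damage, was at 7.03, 5.36 and 6.35 CPM in wild-type cells and 1.82, 1.92 and 1.77 CPM in the knockout. The knockout libraries were all lower, and PLK3 fell by 1.77 log2 units (SE 0.14, edgeR adjusted p = 3.6e-07). The wild-type level of PLK3 was 3.41-fold that of the knockout. The neighbours of PLK2 stood at 0.07 and those of PLK3 at -0.29. PLK3 shares 78 exonic bases with DYNLT4 on the opposite strand, which had 2, 4 and 3 counts in wild-type cells and 0 in knockout cells.

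The 250 bases before the RefSeq starts of PLK2 and PLK3 are shown (GRCh38.p14), 5′ to 3′ on the gene's strand. They lie at chr5:58460087-58460336 on the minus strand for PLK2 and chr1:44800127-44800376 on the plus strand for PLK3. Capitals mark a match to the p53 half-site consensus, the 10-base element that p53 binds in pairs.
PLK2: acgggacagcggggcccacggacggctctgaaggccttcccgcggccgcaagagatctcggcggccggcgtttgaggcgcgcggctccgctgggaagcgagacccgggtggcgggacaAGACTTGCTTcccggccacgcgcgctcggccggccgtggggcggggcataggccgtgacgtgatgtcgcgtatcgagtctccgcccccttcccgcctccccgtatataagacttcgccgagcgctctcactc
PLK3: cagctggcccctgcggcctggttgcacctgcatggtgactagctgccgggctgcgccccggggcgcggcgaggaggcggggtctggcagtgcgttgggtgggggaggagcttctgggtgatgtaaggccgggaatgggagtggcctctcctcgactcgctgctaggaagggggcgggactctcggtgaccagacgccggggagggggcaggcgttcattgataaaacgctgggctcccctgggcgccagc
PLK2 held 1 match, whose first base was at -132 from the start, and PLK3 held none in this window. Whether this match has a part in the changes of PLK2 and PLK3 was not tested. The consensus reads the same on both strands. RefSeq windows of 300 bases, 250 before to 50 after the start, were found for 25 of the 31 genes. Of their 38 windows, 6 (15.8%) held at least 1 half-site, against 6.63% of all 35116 windows. Members were listed largely as known p53 targets, and some windows come from the same gene, so this difference is no result of these data. The genes with a match were PLK2, SESN1 and AEN, which were called higher, DDB2 and FDXR, which were not called, and FAS, which was not tested. Windows were found for 6 of the genes called higher, and 3 of these 10 windows held a match. The 9 windows found for 7 of the genes called lower held 0. Both groups had too few windows, some from the same gene, to compare with each other or with all windows. The windows of MDM2, a classical p53 target, held no match, and a match says nothing of binding in Huh7.

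BTG2, an antiproliferative gene that is an early p53 target, was at 26.7, 25.6 and 25.5 CPM in wild-type cells and 18.3, 18.6 and 18.4 CPM in the knockout. BTG2 fell by 0.49 log2 units (SE 0.05, edgeR adjusted p = 3.8e-06), with well separated groups and neighbours at -0.02. CCNG1 encodes cyclin G1, which recruits a phosphatase to MDM2. Its level was 110, 110 and 111 CPM in wild-type cells and 101, 98.5 and 100 CPM in the knockout. The fall was small beside a narrow spread (log2 fold change -0.14, SE 0.03, edgeR adjusted p = 0.0014).

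**Figure D2:**
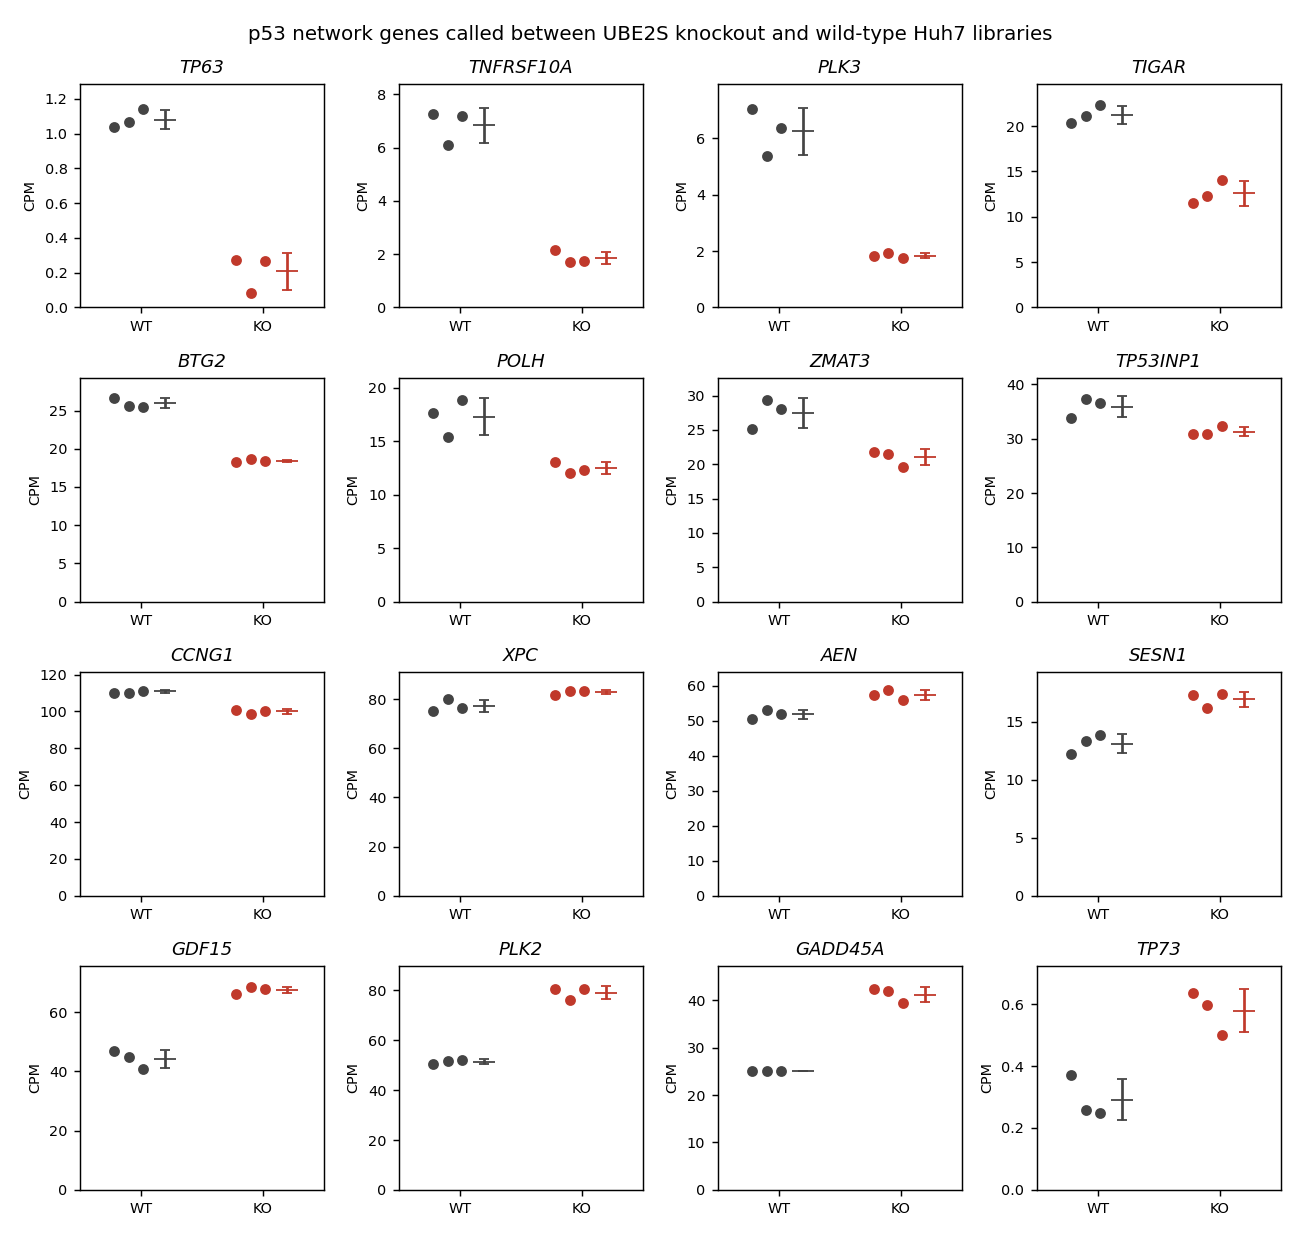
CPM (y axis, linear from 0) in each library for the 16 called p53 network genes, ordered from the largest fall (TP63) to the largest rise (TP73). Points are the 3 wild-type (WT) and 3 UBE2S knockout (KO) libraries, with mean and SD beside them; in each panel the groups do not overlap.

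DNA repair and nucleotide supply held 1 call in each direction among 4 members. POLH, the polymerase that copies past ultraviolet lesions, was at 17.6, 15.4 and 18.9 CPM in wild-type cells and 13.1, 12 and 12.3 CPM in the knockout. It fell by 0.48 log2 units (SE 0.08, edgeR adjusted p = 0.00022), and its neighbours stood at 0.02. XPC, the damage sensor of nucleotide excision repair, rose from 77.3 ± 2.45 to 83.0 ± 0.927 CPM (log2 fold change 0.10, SE 0.04, edgeR adjusted p = 0.023), beside neighbours at 0.13; its value was -0.03 with their median subtracted. The XPC call was lost with DESeq2 (adjusted p = 0.083) and without wild-type replicate 3 (0.065), knockout replicate 2 (0.077) or knockout replicate 3 (0.079), and XPC shares exonic bases on the opposite strand with AC093495.1 (1140 bases), AC090004.1 (413) and LSM3 (318). RRM2B, the p53-inducible subunit of ribonucleotide reductase, was at 28.7 ± 2.68 and 31.9 ± 1.05 CPM and was not called (adjusted p = 0.062). It passed with upper-quartile scaling (0.048), without wild-type replicate 2 (0.047) and without wild-type replicate 3 (0.033).

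DDB2, which recognises ultraviolet damage with XPC, was at 7.77, 7.68 and 7.06 CPM in wild-type cells and 7.82, 9.49 and 7.90 CPM in the knockout. These ranges lay close together, and the log2 fold change of 0.17 (95% interval -0.04 to 0.37) was not called. DDB2 is shown because it was the member whose window held a pair of p53 half-sites at most 13 bases apart, which 0.0285% of all windows did. The pair lies at chr11:47214979-47214999 (GRCh38.p14, plus strand), from base 6 to base 26 after a RefSeq start, with the half-sites in capitals.
DDB2: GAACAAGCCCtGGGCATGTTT
These letters in the window say nothing of binding in Huh7. DDB2 was listed as a known p53 target, so the pair is no result of these data.

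In the metabolic and secreted group, 2 of 4 genes were higher and 1 lower. TIGAR, a phosphatase that diverts glucose from glycolysis to the pentose phosphate pathway, was at 20.3, 21.1 and 22.3 CPM in wild-type cells and 11.5, 12.3 and 14.1 CPM in the knockout. It fell by 0.75 log2 units (SE 0.08, edgeR adjusted p = 3.3e-06). Its neighbours on chromosome 12 stood at -0.33, and -0.41 remained with their median subtracted. TIGAR shares 1711 exonic bases with AC008012.1, a gene model on the same strand, which had 0 counts in wild-type cells and 3, 9 and 0 in knockout cells.

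GDF15 encodes a secreted stress hormone of the transforming growth factor beta family. It was at 47.0, 44.8 and 40.8 CPM in wild-type cells and 66.3, 68.5 and 67.8 CPM in the knockout. All knockout libraries were higher, and GDF15 rose by 0.61 (SE 0.05, edgeR adjusted p = 4e-07), with neighbours at 0.26 and a value of 0.35 once their median was subtracted. SESN1, a sestrin that restrains mTORC1, rose from 13.1 ± 0.823 to 16.9 ± 0.679 CPM (log2 fold change 0.37, SE 0.07), beside neighbours at 0.24. FDXR, the mitochondrial ferredoxin reductase gene, was at 6.01 ± 0.878 and 6.76 ± 0.679 CPM and was not called.

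Levels differed widely between members. Per kilobase of annotated exon in wild type, CCNG1 (35.7 CPM per kilobase), TNFRSF10B (32.7) and GDF15 (21.2) were the most abundant members. TP73 (0.0432), FAS (0.0352), SPATA18 (0.0157) and PHLDA3 (0) were the least. In the knockout the leading genes were TNFRSF10B (34.0), GDF15 (32.4) and CCNG1 (32.3) on the same scale.

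Each member was also set beside its chromosome neighbours (fewer than 25 on a side near a chromosome end). Over all tested genes, the median log2 fold change of the neighbours was -0.34 at percentile 5 and 0.28 at percentile 95. Of the 16 called members, 12 had a neighbour median of the same sign, some of them near 0 (BTG2 -0.02, TP53INP1 -0.04). This count and those that follow were not made over all tested genes, so they have no background share. With that median subtracted, 6 of the 16 kept an absolute value of 0.5 or more (TP63, TNFRSF10A, PLK3, PLK2, GADD45A and TP73), and 2, AEN and XPC, fell below 0.1 in size and changed sign. The part of these regional shifts in the members' changes was not tested.

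Other genes known to respond to p53, from a list of 50 that shares no gene with the members, were also divided. Of the 42 tested, 9 were called higher and 19 lower, 28 in all, where 29.4% of all tested genes were called higher and 30.7% lower. The median log2 fold change of the list was -0.062. Called at an absolute log2 fold change of 0.5 or more were 14 of the 42, 5 higher and 9 lower, against 18.9% of all tested genes. At 1 or more there were 5, against 6.14%. These shares were not compared by a test. SFN, the 14-3-3 sigma gene that holds cells in G2, had 215, 145 and 222 counts in wild-type cells and 3, 3 and 1 in knockout cells (log2 fold change -6.16, SE 0.27, edgeR adjusted p = 2e-09). The inflammatory caspase gene CASP1 (-2.28, SE 0.29) and the growth factor binding gene IGFBP3 (-1.30, SE 0.04) followed. SFN and CASP1 passed the filter on low counts through their wild-type libraries. The size of their falls rests on few knockout counts, which were 6, 5 and 9 for CASP1. The sestrin gene SESN2 (-0.75, SE 0.05) and the ribosomal protein-like gene RPS27L (-0.72, SE 0.04) also fell. SESN2 and SESN1, both sestrin genes, thus went opposite ways.

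Rises on that list were led by KLLN (log2 fold change 1.04, SE 0.22), TP53I11 (1.00, SE 0.08) and BLOC1S2 (0.84, SE 0.07), a subunit of a lysosome-positioning complex. TRIM22, a tripartite motif antiviral gene (0.83, SE 0.28), CMBL (0.67, SE 0.10) and ANKRA2 (0.41, SE 0.09) rose too. With the median of chromosome neighbours subtracted, KLLN stood at 0.64, BLOC1S2 at 0.44 and TP53I11 at 0.91. TRIM22 lost its call with DESeq2 (adjusted p = 0.13) and without wild-type replicate 3 (0.081) or knockout replicate 2 (0.11). CDKN1A, which encodes the cell cycle inhibitor p21 and is the best known p53 target, was named after its values were seen. It had 260, 209 and 222 counts in wild-type cells and 126, 126 and 143 in knockout cells, and fell by 0.67 log2 units (SE 0.10, edgeR adjusted p = 6.9e-05).

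Of 44 other regulators of p53, all tested, 14 were called higher and 12 lower, mostly by small amounts, with a median log2 fold change of 0.018. These 26 calls were a share near the background, since 60.1% of all tested genes were called. The lysine methyltransferase gene SETD7 rose from 212 ± 5.43 to 304 ± 3.02 CPM (0.52, SE 0.03). It was the 1 member of this list called beyond 0.5, where 18.9% of all tested genes were called at that size. PPP1R13L, an inhibitor of p53-driven apoptosis (0.32, SE 0.08), the ubiquitin ligase gene TRIM24 (0.31, SE 0.03) and the damage response adaptor gene TP53BP1 (0.30, SE 0.03) rose. CDKN2A, whose locus encodes the MDM2 inhibitor p14ARF and the kinase inhibitor p16 (0.28, SE 0.05), and the acetyltransferase gene KAT5 (0.28, SE 0.06) rose as well.

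Falls on the regulator list were those of the deacetylase gene HDAC1 (log2 fold change -0.49, SE 0.05), RPL11, whose ribosomal protein binds MDM2 under nucleolar stress (-0.49, SE 0.04), and the arginine methyltransferase gene PRMT5 (-0.43, SE 0.05). The acetyltransferase gene EP300 (-0.37, SE 0.04), the damage kinase gene ATM (-0.32, SE 0.03) and the ubiquitin ligase gene UBE4B (-0.32, SE 0.03) followed. With the median of chromosome neighbours subtracted, UBE4B stood at -0.03, PRMT5 at -0.08 and EP300 at -0.11, HDAC1 and RPL11 both at -0.25, and SETD7 at 0.23.

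**Figure D3:**
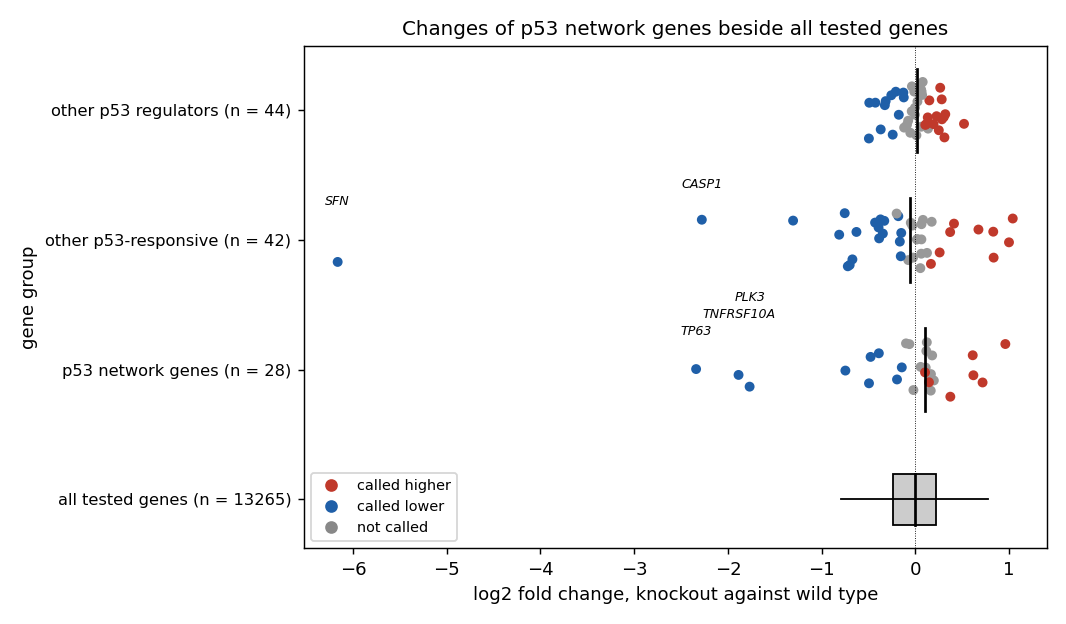
Log2 fold change (x axis) of the 28 tested p53 network genes, 42 other p53-responsive genes and 44 other p53 regulators, 1 point per gene with its call and a line at the list median; the box spans percentiles 25 to 75 of all 13265 tested genes and its line percentiles 5 to 95. The medians (0.108, -0.062 and 0.018) lie near 0, and a few genes such as SFN, TP63, TNFRSF10A and PLK3 lie far to the left.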

How the data were processed

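The values deposited by the authors are estimated counts, 1 per gene and library for 6 libraries, with no normalization. Bowtie2 2.2.8, HISAT2, StringTie 1.3.1 and DESeq2 are named, with no role, per the submitters' processing notes; the sources used here give no build, annotation or strand setting. Counts were rounded to whole numbers. Genes passed filterByExpr (minimum count 10), libraries were scaled by TMM, and knockout was compared with wild type by edgeR 4.0.16 quasi-likelihood tests in R 4.3.3, with Benjamini-Hochberg adjustment over all tested genes at 0.05. Standard errors came from the fold change and its F statistic. Of 20289 identifiers, 99.4% matched GENCODE 29 (GRCh38), which gave positions. Promoter windows are RefSeq's (GRCh38.p14). Alternatives were other scalings, filters, DESeq2 1.42.0, limma-voom (limma 3.58.1), a replicate block, each library left out, a threshold of 0.01, a minimum fold of 1.2 and subtraction of the neighbours' median. In simulated knockout against wild-type counts of 13265 genes, edgeR recovered 64% of 50 genes changed by 0.3 (log2), 80% at 0.5, 96% at 1 and 100% at 2. It made 7 false calls. Far fewer genes were changed there than the 60.1% called in the data. The adjusted threshold depends on that share, so these rates need not hold here. The named genes were all members, UBE2S and up to 6 called genes per direction in each other list, of which 1 is not reported here. Members and lists were chosen with earlier results of these data known.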

Additional observations from a re-analysis of the deposited data

How the results depend on the processing

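Of the 16 called members, 14 kept their call and direction in all 14 other fits; TP73 and XPC did not. With a minimum fold of 1.2, 3 members were called higher and 7 lower; the other p53-responsive genes then had 5 higher and 12 lower, and the other regulators 1 higher and 5 lower, by construction a stricter test. Upper-quartile scaling gave 11 members higher. Leaving out 1 library gave 5 to 8 members higher and 9 lower in each case, with 7 and 9 without wild-type replicate 1. With the neighbours' median subtracted, XPC (-0.03) and AEN (-0.02) reversed. With the replicate number as a block, 7 members were higher and 9 lower and UBE2S stood at -2.29; deviations of same-numbered libraries correlated at 0.006, -0.01 and 0.003, so the numbers were not taken to pair libraries, and not every library correlated best with its own number. Depth limits TP73, TP63 and the 3 untested genes, FAS, SPATA18 and PHLDA3, whose changes rest on few counts. In the other p53-responsive list, SFN and CASP1 had few counts in the knockout.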
